A study of Mus musculus with 80 samples.

Results

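The naive pluripotency transcription factors are the 9 genes Nanog, Klf2, Klf4, Klf5, Esrrb, Tfcp2l1, Tbx3, Zfp42 and Nr5a2. They were chosen by name, as the factors that set the naive state of mouse embryonic stem cells (ESCs), and were matched by symbol to 9 of the 25965 genes of the expression table. H3K9me2, dimethylated lysine 9 of histone H3, was read over the same genes from start to end in bins of 2 kb.

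All libraries used here came from E14, a widely used wild-type mouse ESC line, first grown in serum medium with the cytokine LIF. 2i medium was serum-free N2B27 with LIF, the MEK inhibitor PD0325901 and the GSK3 inhibitor CHIR99021. RNA-seq covered serum and 6, 24 and 72 h of 2i, with 3 replicates each, and H3K9me2 ChIP-seq covered serum, a 24 h step in 2i and LT2i, the labels' name for cells kept in 2i long term, with 2 bound libraries and 1 input each. The study calls its expression replicates biological, while the labels of the ChIP libraries do not say whether these were separate cultures, so their p-values measure a spread that may be technical.

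In naive ESCs a network of transcription factors holds the cells in self-renewal, and its members bind and activate each other's genes together with OCT4 and SOX2. LIF acts on it through STAT3, whose targets include Tfcp2l1 and Klf4. Inhibition of GSK3 relieves the repressor TCF3 from genes such as Esrrb, and inhibition of MEK blocks the FGF and ERK signal that drives cells out of the naive state. H3K9me2 is a mark of silent chromatin laid down in broad domains by the methyltransferases G9a and GLP.

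RefSeq promoters on GRCm38.p6 were at hand for 7 of the 9 genes, all but Klf5 and Tbx3. The next 4 were picked as examples of the patterns: Nanog rose early and stayed high, Esrrb and Tfcp2l1 lost H3K9me2, and Zfp42 fell. The promoter of Nr5a2, which also lost H3K9me2, is not shown. Each line holds the 250 bases before the start, 5′ to 3′ in the direction of the gene, with motif matches in capitals.
Nanog (chr6:122707239-122707488, forward strand): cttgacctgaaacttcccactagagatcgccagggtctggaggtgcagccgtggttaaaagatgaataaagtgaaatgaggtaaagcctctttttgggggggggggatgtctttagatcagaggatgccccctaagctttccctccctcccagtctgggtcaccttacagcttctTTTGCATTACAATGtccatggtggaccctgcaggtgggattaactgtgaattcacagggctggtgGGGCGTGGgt
Esrrb (chr12:86360867-86361116, forward strand): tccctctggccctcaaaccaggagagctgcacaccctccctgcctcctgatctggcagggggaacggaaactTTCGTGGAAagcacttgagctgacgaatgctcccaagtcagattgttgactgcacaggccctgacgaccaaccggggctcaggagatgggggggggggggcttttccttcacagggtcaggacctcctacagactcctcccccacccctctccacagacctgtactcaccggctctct
Tfcp2l1 (chr1:118627695-118627944, forward strand): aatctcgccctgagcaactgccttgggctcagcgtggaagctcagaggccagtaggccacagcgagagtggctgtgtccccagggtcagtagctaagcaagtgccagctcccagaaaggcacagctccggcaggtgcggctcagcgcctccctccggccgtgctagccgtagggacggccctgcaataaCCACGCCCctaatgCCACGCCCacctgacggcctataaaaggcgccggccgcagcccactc
Zfp42 (chr8:43307010-43307259, reverse strand): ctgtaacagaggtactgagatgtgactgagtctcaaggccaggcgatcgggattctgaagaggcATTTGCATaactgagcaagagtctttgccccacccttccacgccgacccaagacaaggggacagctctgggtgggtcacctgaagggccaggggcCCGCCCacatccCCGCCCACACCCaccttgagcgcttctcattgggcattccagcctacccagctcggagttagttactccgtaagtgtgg

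Capitals mark matches on either strand to 7 motifs, which may overlap. A match describes letters and is not a binding site. Nanog held the joined SOX and OCT motif on the reverse strand at -75 to -62 from the start, letters present in 0.00609% of the 32851 promoters of the same length. It also held the KLF motif CCACNCCC, which 15.9% of promoters hold. Both motifs were settled after matches to an earlier motif set were seen, so their shares do not say how unusual these matches are. Esrrb held the STAT motif TTCNNNGAA at -178 to -170, found in 7.02% of promoters. Tfcp2l1 held the KLF motif at -61 to -54 and again at -47 to -40. Zfp42 held the OCT motif ATGCNAAT at -186 to -179, found in 2.86% of promoters, beside the KLF motif and 2 copies of the GC box GGGCGG, found in 32.7%. Of the promoters not shown, Klf2 held 2 GC boxes and Klf4 held 4, and Nr5a2 held none of the 7 motifs. The TCF/LEF motif CTTTGAT (3.21% of promoters) and the ESRRB motif TCAAGGTCA (0.387%) were in none of these 7 windows. Klf4 and Klf2 had the richest promoters, with 32 and 29 CpG sites, against 3 in Nanog and 2 in Nr5a2 and a median of 6 over all promoters.

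RNA-seq values are the deposited log2 levels per gene, scaled by the authors for gene length and depth and set to a common 75th percentile, so levels can be set side by side between genes. The depth of these libraries is unknown. The 5 ESC markers Pou5f1, Sox2, Utf1, Dppa5a and Tdgf1 were above a log2 level of 0 in all 12 libraries, with summed linear levels of 961 to 3534. Summed markers of primitive endoderm (7 genes), fibroblast feeders (8), trophoblast (6) and mesoderm (5) reached at most 4.95, 11.6, 6.37 and 4.46 in any library. Of the 5 neural markers, Tubb3 and Nes stayed above 0 in every library, and the sum ran from 54.2 to 56.8 in serum, 95.8 to 98.5 at 6 h, 64.5 to 80.1 at 24 h and 32.7 to 37.1 at 72 h. Tubb3 carried the rise of the sum at 6 h, from 5.37, 5.37 and 5.41 in serum to 6.51, 6.47 and 6.49. Nes, Neurod1, Pax6 and Sox1 were lower in every 6 h library than in any serum library. The part of this sum in the members' changes was not tested. In bulk samples, fewer cells of a type and less RNA per cell cannot be told apart.

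In serum the 9 genes spanned a wide range of levels. Zfp42, which encodes the zinc-finger protein REX1, was highest at 7.70 ± 0.20 (SD, n = 3), above 98.8% of the 12306 genes tested. Nanog followed at 6.78 ± 0.13, then Klf5 at 6.32 ± 0.08, Klf2 at 6.12 ± 0.08, Esrrb at 5.80 ± 0.16, Klf4 at 5.28 ± 0.17, Tfcp2l1 at 4.67 ± 0.15, Tbx3 at 4.00 ± 0.10 and Nr5a2 at 3.50 ± 0.05. No pair of neighbours in this order overlapped between its libraries. At 72 h of 2i the order was Nanog (8.49 ± 0.18), Klf2 (7.46 ± 0.19), Zfp42 (7.03 ± 0.07), Esrrb (6.75 ± 0.09), Klf4 (6.63 ± 0.09), Tfcp2l1 (6.35 ± 0.33), Klf5 (6.16 ± 0.34), Tbx3 (5.49 ± 0.22) and Nr5a2 (4.33 ± 0.15). There the libraries of Tfcp2l1 overlapped with those of both Klf4 and Klf5, the other neighbours did not overlap, and the gap between Esrrb and Klf4 was small. The leading place had passed from Zfp42 to Nanog by 6 h, and Nr5a2 was lowest in all 4 groups.

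Most of the 9 genes rose in 2i, but on different schedules. A change counted as called where the adjusted p of limma, taken over all 12306 genes by the Benjamini-Hochberg method, was below 0.05. At 6 h 8 of the 9 were called, 6 higher and 2 lower, where 15.6% of all genes were called, 9.13% higher and 6.48% lower. At 24 h 7 were called, 5 higher and 2 lower, against a background of 63.3%, 34.2% higher and 29.1% lower. At 72 h 8 were called, 7 higher and 1 lower, against 52.2%, 25.7% higher and 26.5% lower. The median change of the 9 was 0.59, 0.44 and 1.33 on the log2 scale, against 0.01, 0.11 and -0.01 over all genes tested. Replicates did not overlap with serum in 9 of the 9 at 6 h, 7 at 24 h and 8 at 72 h, where this held for 44.4%, 64.7% and 63.5% of all genes. The 3 comparisons share the serum libraries.

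**Figure D1:**
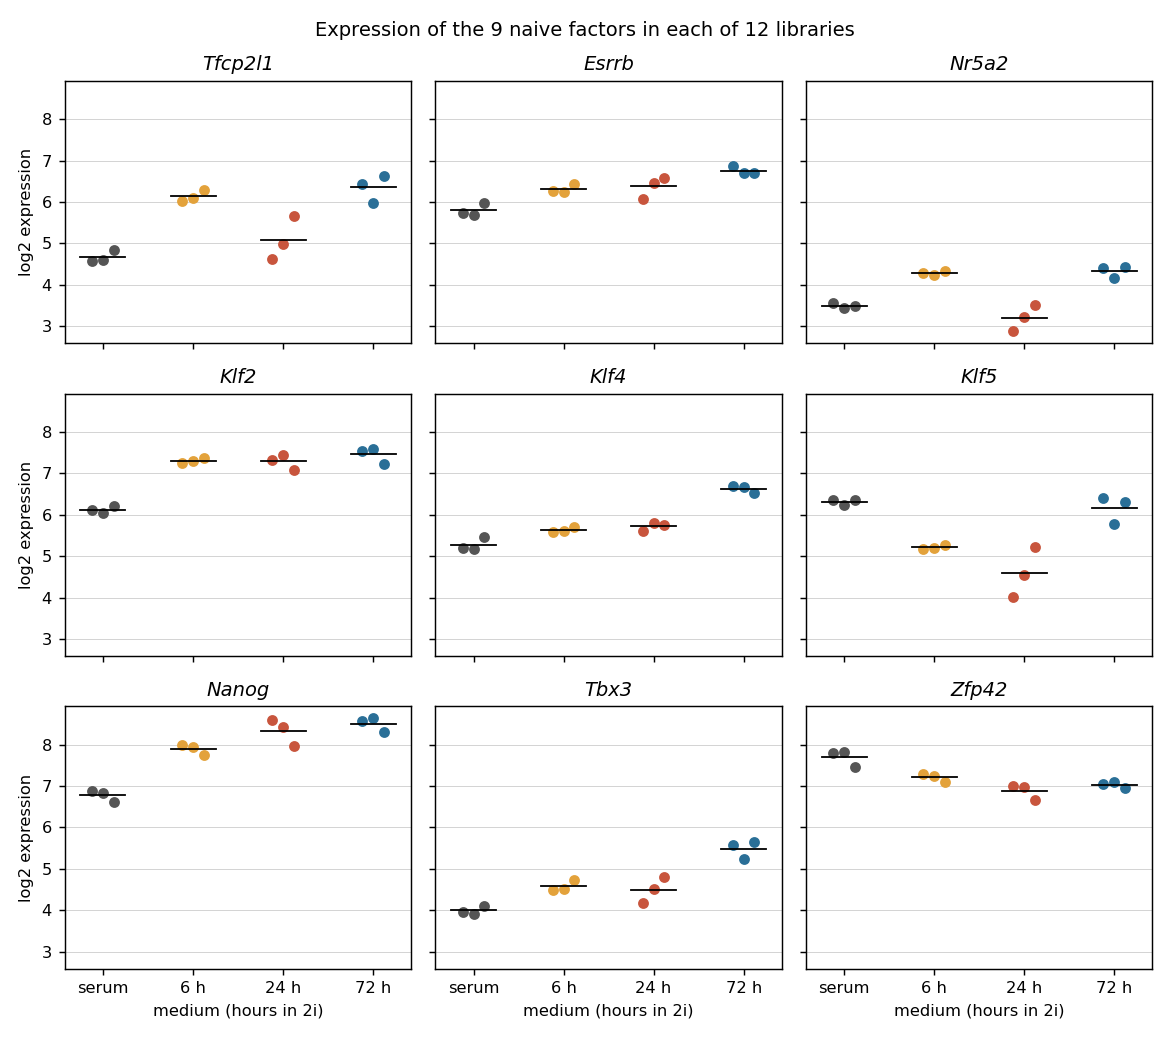
Log2 expression (per length and depth) of the 9 factors in each of 12 libraries, by medium, with points for replicates and a line for the mean of 3. Nanog and Klf2 step up by 6 h and stay high, Tfcp2l1 and Nr5a2 are high at 6 and 72 h and lower at 24 h, Klf5 dips and returns, and Zfp42 is lower in every 2i group.

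Tfcp2l1 (chr1:118627945-118685167, forward strand, GRCm38), a CP2-family factor downstream of LIF and STAT3, was higher than in serum at 6 and 72 h. Its log2 levels were 4.57, 4.60 and 4.84 in serum, 6.02, 6.09 and 6.29 at 6 h, 4.63, 5.00 and 5.66 at 24 h, and 6.45, 5.98 and 6.63 at 72 h. The 6 h and 72 h libraries all lay above serum, while those of 24 h overlapped with it. The rise was 2.76-fold at 6 h (log2 change 1.46 ± 0.24 SE, limma adjusted p = 0.00143) and 3.21-fold at 72 h (1.68 ± 0.24, adjusted p = 0.000126). At 24 h it was 0.42 (95% interval -0.10 to 0.94) and was not called (limma adjusted p = 0.138), though it was with the replicate number as a block (limma adjusted p = 0.0435). With 1 library left out it ran from 0.14 without 24 h replicate 3 (limma adjusted p = 0.511) to 0.65 without 24 h replicate 1, where it was called (adjusted p = 0.0291).

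Nr5a2 (chr1:136843584-136960427, reverse strand), an orphan nuclear receptor also called LRH-1 that binds the Pou5f1 gene, moved in the same order of times at a lower level. It stood at 3.56, 3.45 and 3.50 in serum, 4.30, 4.23 and 4.34 at 6 h, 2.88, 3.22 and 3.52 at 24 h, and 4.41, 4.16 and 4.43 at 72 h. Again 6 h and 72 h were clear of serum and 24 h was not, with 2 of its 3 libraries below every serum library. The change was 0.79 ± 0.15 (SE) at 6 h (limma adjusted p = 0.00341) and 0.83 ± 0.15 at 72 h (adjusted p = 0.00059). The value at 24 h was -0.29 (interval -0.61 to 0.03, limma adjusted p = 0.097). With 1 library left out it ran from -0.13 without 24 h replicate 1 (limma adjusted p = 0.385) to -0.45 without 24 h replicate 3, where it was called lower (adjusted p = 0.00688).

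Esrrb (chr12:86361117-86521628, forward strand), an orphan nuclear receptor released by GSK3 inhibition, rose more evenly. Its libraries held 5.74, 5.68 and 5.98 in serum, 6.26, 6.24 and 6.43 at 6 h, 6.08, 6.46 and 6.58 at 24 h, and 6.86, 6.70 and 6.69 at 72 h. Every 2i library was above every serum library, and 72 h lay above 24 h. The log2 change was 0.51 ± 0.14 (SE) at 6 h (limma adjusted p = 0.0307), 0.58 ± 0.14 at 24 h (adjusted p = 0.00456) and 0.95 ± 0.14 at 72 h (adjusted p = 0.000198). The 24 h call was lost with quantile normalisation (0.36, limma adjusted p = 0.152), as were those of Klf4 (0.32, adjusted p = 0.0924) and Tbx3 (0.48, adjusted p = 0.0719). With the trend with gene span removed, as described below, the changes of Esrrb were 0.49, 1.09 and 1.08 over the 3 times.

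Among the Krüppel-like factors, which share a zinc-finger DNA-binding domain and can in part replace each other in ESCs, 3 patterns were seen. Klf2 (chr8:72319033-72321656, forward strand) had 6.12, 6.04 and 6.21 in serum, 7.25, 7.30 and 7.36 at 6 h, 7.33, 7.44 and 7.09 at 24 h, and 7.54, 7.59 and 7.24 at 72 h. Every 2i library stood above every serum library. The rise was 2.27-fold after 6 h, 2.24-fold after 24 h and 2.52-fold after 72 h (limma adjusted p = 9.99e-05, 2.59e-05 and 8.4e-06), so the 6 h change was 88.8% of that at 72 h.

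Klf4 (chr4:55527143-55532466, reverse strand), a target of STAT3, rose mainly between 24 and 72 h. Its values were 5.19, 5.16 and 5.47 in serum, 5.57, 5.60 and 5.72 at 6 h, 5.62, 5.79 and 5.75 at 24 h, and 6.68, 6.67 and 6.53 at 72 h. All 2i libraries exceeded the highest serum library, by a small margin until 24 h. The change at 6 h was 0.35 ± 0.11 (SE) and was not called (limma adjusted p = 0.0538), but it was with the block (limma adjusted p = 0.0347). With 1 library left out it ran from 0.30 without serum replicate 2 (limma adjusted p = 0.207) to 0.45 without serum replicate 3, where it was called (adjusted p = 0.0247). It was 0.44 at 24 h (limma adjusted p = 0.00516) and 1.35 at 72 h (adjusted p = 2.03e-06), a 2.56-fold rise.

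Klf5 (chr14:99298691-99313405, forward strand) went the other way. In serum it stood at 6.36, 6.23 and 6.37, at 6 h at 5.17, 5.19 and 5.28, at 24 h at 4.01, 4.54 and 5.21, and at 72 h at 6.40, 5.77 and 6.30. Both early groups lay below serum, the 24 h libraries were spread widely, and 72 h overlapped with serum. Klf5 fell to 0.465 of its serum level at 6 h (log2 change -1.10 ± 0.25 SE, limma adjusted p = 0.0115) and to 0.302 at 24 h (-1.73 ± 0.25, adjusted p = 0.00015). At 72 h the change was -0.16, with an interval from -0.72 to 0.39 (limma adjusted p = 0.616).

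Nanog (chr6:122707489-122714633, forward strand), the homeodomain factor whose level varies from cell to cell in serum, was higher than in serum in every 2i library. Its levels were 6.87, 6.83 and 6.62 in serum, 7.98, 7.94 and 7.74 at 6 h, 8.59, 8.42 and 7.98 at 24 h, and 8.56, 8.63 and 8.29 at 72 h. The rise was 2.16-fold at 6 h, 2.93-fold at 24 h and 3.29-fold at 72 h (limma adjusted p = 0.00104, 2.18e-05 and 9.03e-06). Its log2 change at 72 h (1.72 ± 0.17 SE) and that of Tfcp2l1 (1.68 ± 0.24) were within their errors of each other, and with the span trend removed their order turned (1.66 and 1.75).

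Tbx3 (chr5:119670669-119684724, forward strand), a T-box factor, held 3.96, 3.92 and 4.11 in serum, 4.50, 4.53 and 4.74 at 6 h, 4.17, 4.50 and 4.81 at 24 h, and 5.57, 5.24 and 5.65 at 72 h. It was above serum in all 2i libraries and, as with Klf4, the 72 h libraries stood above all others. The log2 change was 0.59 ± 0.16 (SE) at 6 h (limma adjusted p = 0.0307), 0.50 ± 0.16 at 24 h (adjusted p = 0.0209) and 1.49 ± 0.16 at 72 h (adjusted p = 1.94e-05).

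Zfp42 (chr8:43295068-43307009, reverse strand), widely used as a reporter of the naive state, was lower in 2i at every time. Its libraries held 7.79, 7.83 and 7.47 in serum, 7.30, 7.24 and 7.09 at 6 h, 7.00, 6.98 and 6.67 at 24 h, and 7.05, 7.09 and 6.95 at 72 h. All 2i libraries lay below the lowest serum library. Zfp42 fell to 0.714, 0.569 and 0.629 of its serum level over the 3 times (limma adjusted p = 0.0357, 0.000448 and 0.00191).

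The 6 h calls of the smaller changes depended on which libraries were used and on the scaling. Quantile normalisation left 6 of the 9, without Esrrb (limma adjusted p = 0.0774) and Tbx3 (0.0652). Of all genes it called 15.9%, against 15.6% without it. Without serum replicate 1 or 2, or without any one of the 6 h replicates, Esrrb, Tbx3 and Zfp42 were not called (limma adjusted p = 0.0656 to 0.144) and 5 of the 9 genes were. Those fits called 10% to 10.7% of all genes. Without serum replicate 3, 8 of the 9 were called, among them Esrrb (limma adjusted p = 0.0318), Zfp42 (0.0208) and Klf4. That fit called 11.7% of all genes. Tbx3 then missed the threshold (limma adjusted p = 0.052), as it did at 24 h without serum replicate 1 (0.0577) or 2 (0.0652) or 24 h replicate 2 (0.0527) or 3 (0.0614).

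**Figure D2:**
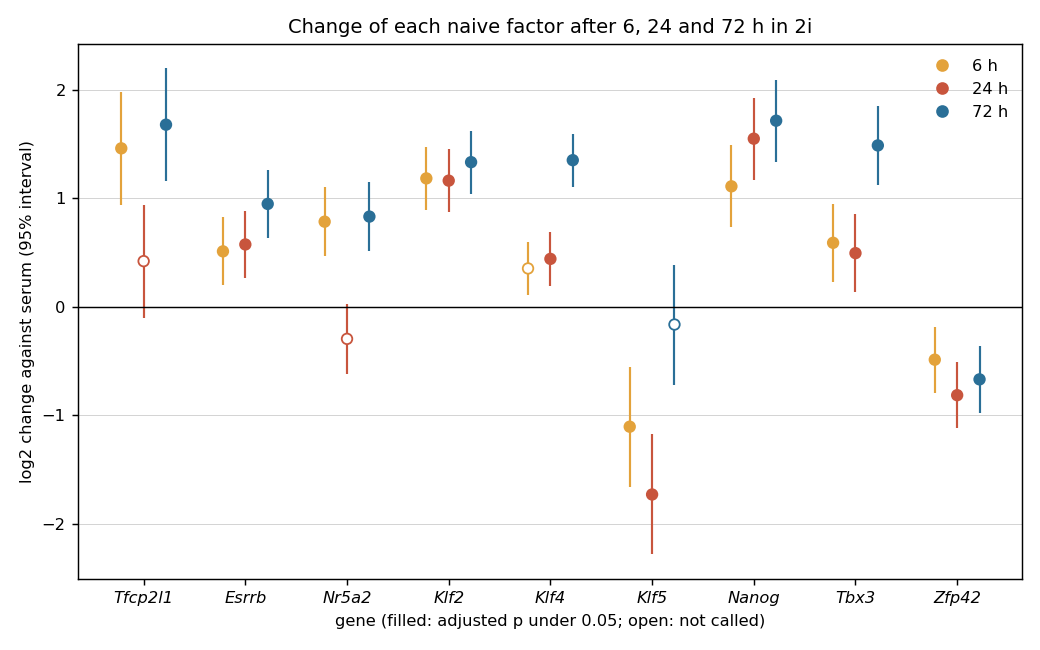
Log2 change against serum with its 95% interval for each factor after 6, 24 and 72 h in 2i (n = 3 per group), filled where called. Tfcp2l1 and Nr5a2 are called at 6 and 72 h but not at 24 h, the points of Klf4 (1.35) and Tbx3 (1.49) at 72 h lie above their earlier ones, and Zfp42 and early Klf5 lie below 0.

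A direct comparison of 72 h with 24 h addressed which changes differed between these times. Here 5 of the 9 genes were called, all higher at 72 h, where 31.6% of all genes were called and 15.8% were higher, and replicates of 6 did not overlap, as for 33.5% of all genes. Klf5 differed by 1.57 ± 0.25 (SE), Tfcp2l1 by 1.26 ± 0.24, Nr5a2 by 1.13 ± 0.15, Tbx3 by 0.99 ± 0.16 and Klf4 by 0.91 ± 0.11 (limma adjusted p = 0.00093, 0.00237, 0.000246, 0.00109 and 0.000176). All 5 were higher in every 72 h library than in any 24 h library. Esrrb differed by 0.37 (interval 0.06 to 0.69, limma adjusted p = 0.0651), and with 1 library left out it ran from 0.23 without 24 h replicate 1 (adjusted p = 0.227) to 0.48 without 24 h replicate 3, where it was called (adjusted p = 0.0156). Klf2 (0.17, interval -0.12 to 0.46), Nanog (0.17, interval -0.21 to 0.54) and Zfp42 (0.15, interval -0.16 to 0.45) were not called, though quantile normalisation called all 3 higher (0.49, 0.53 and 0.42, limma adjusted p = 0.0112, 0.00315 and 0.0139).

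The 24 h libraries differed from serum in step with gene span, the distance from start to end. In the 20% of genes with the longest span the median change was -0.55, -0.49 and -0.17 in the 3 libraries at 24 h, and in the 20% with the shortest it was 0.73, 0.64 and 0.19. The same medians lay between -0.07 and 0.08 at 6 h, and among the 72 h libraries replicate 2 stood apart with -0.29 and 0.45. Esrrb, Nr5a2 and Tfcp2l1 span 161, 117 and 57.2 kb, and the other members 2.62 to 14.7 kb. With the span trend removed, the 24 h change was 1.09 for Esrrb, 0.69 for Tfcp2l1 (limma adjusted p = 0.00467), 0.15 for Nr5a2 (adjusted p = 0.16), 0.20 for Klf4 (adjusted p = 0.201) and 0.36 for Tbx3 (adjusted p = 0.096). In this form the difference of 72 h from 24 h was -0.01 for Esrrb and remained called for Tfcp2l1 (1.07, limma adjusted p = 0.000797), Nr5a2 (0.80, adjusted p = 6.86e-05), Klf4 (1.10), Tbx3 (1.10) and Klf5 (1.67). Klf2 was then called too (0.39, limma adjusted p = 0.0148). The part of gene span in the 24 h levels was not tested.

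Other genes followed the members closely over the 12 libraries, which share 4 groups, so the correlations below mostly restate group means and carry no p. Nanog was most like Hspb8 (Pearson r = 0.996) and Mfsd1 (0.99), Klf2 like Cdx1 (0.981) and Vax2os2 (0.978), and Klf4 like Prep (0.99) and Ttyh2 (0.98). Klf5 ran with Myadm (0.991) and Clgn (0.985), Esrrb with Slc38a7 (0.987) and AU040320 (0.987), and Tfcp2l1 with Celsr1 (0.985) and Galnt7 (0.976). The nearest to Tbx3 were Rusc2 (0.992) and Hs6st1 (0.99), to Zfp42 Sms (0.98) and Gm1818 (0.979), and to Nr5a2 Fkbp15 (0.978) and Ulk1 (0.977).

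The related lists gave the setting of these changes. Of 16 core and associated pluripotency factors, 5 were higher and 8 lower at 72 h, where 25.7% of all genes were higher and 26.5% lower, with a median change of -0.40. Utf1, a chromatin factor of undifferentiated ESCs, fell by 3.44 and Gbx2, a homeobox target of STAT3, fell by 2.39, while Tfap2c rose by 2.39 and Prdm14, a repressor of FGF signalling, rose by 2.37 (log2, SE 0.11 to 0.14). Of the 18 signal inputs 1 was higher and 9 lower, with a median of -0.53. Of the 12 formative and primed factors 10 were tested and 9 were lower, none higher, with a median of -2.61. Of 27 relatives of the members, other KLF, T-box, CP2 and nuclear receptor genes, 17 were tested, 6 were higher and 5 lower, with a median of -0.02. Earlier, the formative and primed factors already had 8 genes lower at 6 h and 10 at 24 h, and the signal inputs 8 and 13 lower against 2 and 0 higher. Core factors had 2 higher and 7 lower at 6 h and 5 higher and 8 lower at 24 h, and relatives 4 higher and 2 lower, then 5 higher and 9 lower. Of all genes, 9.13% were called higher and 6.48% lower at 6 h, and 34.2% and 29.1% at 24 h. At 72 h the median of all genes was -0.01, and the members, at 1.33, had the highest median of the 5 lists. The lists were chosen with earlier results of these data known, so this order is not an independent result.

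The named signal inputs were targets of the ERK pathway that the MEK inhibitor blocks. Dusp6, an ERK phosphatase, fell by 5.28 already at 6 h and Egr1, an immediate early gene, fell by 4.21. Etv4, an ETS factor, fell by 1.07 at 6 h and by 5.69 at 72 h. Spry4, an inhibitor of receptor tyrosine kinase signalling, stood at 4.77, 4.74 and 5.00 in serum and -2.83, -3.23 and -3.87 at 6 h, and 2 of its 72 h libraries held the value of a gene without reads, so no fold is given there. Among the primed factors at 72 h, Pou3f1 (OCT6) fell by 5.57, Dnmt3b, a de novo DNA methyltransferase, fell by 4.19, Sox11 fell by 3.99 and Grhl2 fell by 3.67. Among the relatives Klf10 rose by 1.23 and Esrra by 1.13, and Klf12 fell by 1.64 and Klf7 by 1.13.

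**Figure D3:**
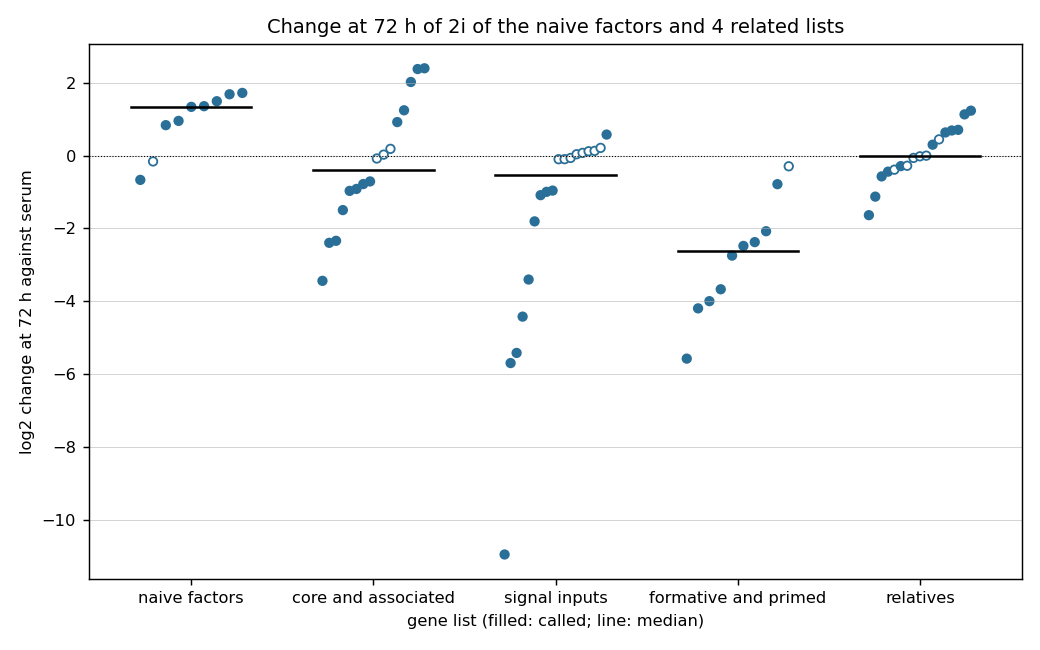
Log2 change at 72 h of 2i against serum for each tested gene of the 9 naive factors and 4 related lists, filled where called, with a line at the median. The naive factors have a median of 1.33 and the formative and primed factors one of -2.61. The lowest point, of Spry4, rests on libraries with few or no reads.

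H3K9me2 was given as bound reads in percent of input reads, both scaled by depth, over all 2-kb bins that overlap a gene. Bound libraries held 14396552 to 19279328 reads and inputs 15878750 to 23785128. There was no spike-in, so values describe the mark relative to the rest of the genome in each library. Both bound libraries of a medium share 1 input, and p-values leave out its error. A gene was tested where its scaled reads averaged 20 or more over bound and input libraries together, which held for 8 of the 9, all but Klf2. The inputs carried the short genes past this minimum, since Klf4 had only 1 to 5 bound reads in a library and Tbx3 2 to 11.

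The members fell into 2 classes by gene span. In serum the long genes were covered at about the level of an average gene. Nr5a2 held 70.5% and 73.5% of input in its 2 serum libraries, Tfcp2l1 62.1% and 61.0%, and Esrrb 58.5% and 54.4%, where the median gene tested stood at 54.9%. Among the 11117 tested genes that were also tested for expression the median was 30.6%, and these 3 lay above 84.9%, 79.4% and 76.0% of them. For such genes with a span of 50 kb or more (2865 genes) the median was 56.9%.

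Among the short genes Nanog held 31.6% and 21.1% of input in serum, above 42.5% of the expressed genes. The others carried less of the mark, Klf5 12.8% and 12.9%, Zfp42 11.7% and 11.04%, Klf4 5.79% and 14.6%, and Tbx3 6.39% and 4.87%. Tbx3, at 11 and 4 bound reads against 203 input reads, lay above 0.907% of all genes tested. Klf2 had 2 and 1 bound reads in serum against 35 in the input, 0 and 3 against 40 at 24 h, and 0 and 1 against 27 in LT2i, so no change was detectable at this depth. Intervals for these genes rest on the spread between libraries. The deposited table enters an empty bin as 0.9 reads, which raises low values, so Tbx3 would stand at 5.49% and 2.07% in serum with empty bins as 0 reads.

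**Figure D4:**
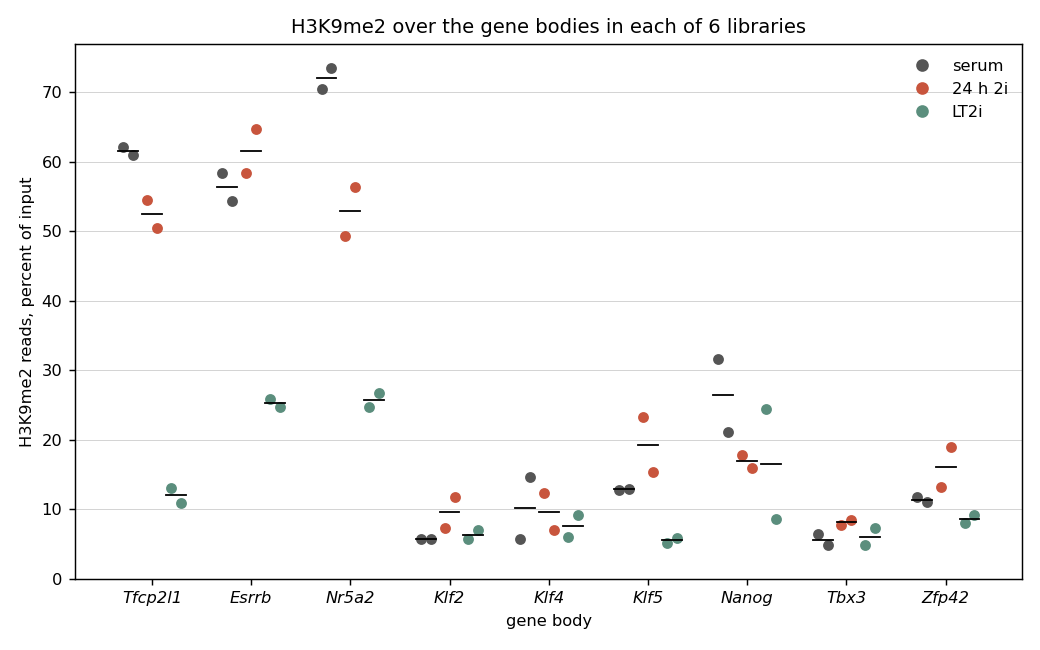
H3K9me2 reads in percent of input over the body of each factor, with a point for each of 2 libraries per medium and a line for their mean. Tfcp2l1, Esrrb and Nr5a2 lie between 49 and 74 in serum and at 24 h and below 27 in LT2i, and the 6 short genes lie below 32 throughout.

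At 24 h of 2i 1 of the 8 tested members was called, where 4.6% of all genes were called, 3.68% lower and 0.917% higher. Nr5a2 held 49.3% and 56.4% of input, below both serum libraries (log2 change -0.45 ± 0.08 SE, limma adjusted p = 0.00941). This call held with the median change of all genes subtracted (-0.42, limma adjusted p = 0.0177) and with empty bins as 0 reads (-0.45, adjusted p = 0.0441). At the start of the gene the direction turned (0.25, limma adjusted p = 0.81). The call over the body was lost when each library was centred on its median gene (-0.39, limma adjusted p = 0.0504), and without 24 h replicate 1 (-0.35, adjusted p = 0.176) or 2 (-0.55, adjusted p = 0.117). The library left in that group is then assumed to vary like the other groups, and none of the 21931 genes was called by limma (3175 and 3133 at an unadjusted p under 0.05). Tfcp2l1 stood at 54.5% and 50.5% (-0.23, interval -0.47 to 0.00) and Esrrb at 58.4% and 64.7% (0.12, interval -0.03 to 0.28). Over all genes the 1008 calls were 201 higher and 807 lower, and with centring 412 were called, 168 higher and 244 lower.

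In LT2i 4 of the 8 were called, all lower, where 61.3% of all genes were called, 54.5% lower and 6.8% higher. Tfcp2l1 held 13.0% and 10.9% of input, a fall to 0.194 of serum (log2 change -2.37 ± 0.11 SE, limma adjusted p = 2.19e-10). Nr5a2 held 24.7% and 26.8% (-1.48 ± 0.08, adjusted p = 1.05e-09) and Esrrb 25.9% and 24.7% (-1.16 ± 0.07, adjusted p = 2.53e-09). In all 3 genes both LT2i libraries were below both serum and both 24 h libraries. Lower than in serum were 30 of 30 bins in Tfcp2l1, 56 of 59 in Nr5a2 and 75 of 81 in Esrrb. Within 60 kb upstream and downstream, this held for 23 of 23 and 29 of 29 bins around Tfcp2l1. Around Nr5a2 it held for 25 of 28 and 17 of 29, and around Esrrb for 27 of 30 and 23 of 30. Of the expressed genes with a span of 50 kb or more, 87.3% were called lower, with a median change of -0.85. Of these genes, 0.175% had a larger fall than Tfcp2l1, 11.9% than Nr5a2 and 28.5% than Esrrb.

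Klf5 had 21 and 22 bound reads in serum and 5 and 3 in LT2i (-1.23 ± 0.24 SE, limma adjusted p = 0.000443). Reads entered for empty bins made up 35.1% and 60.0% of its LT2i values, which limits the fall that can be seen, and with empty bins as 0 reads the change was -2.08 (limma adjusted p = 0.000266). Nanog held 24.4% and 8.59% in LT2i, of which the first overlapped with serum. Its change of -0.84 (interval -1.67 to 0.00) was not called (limma adjusted p = 0.0762). The size rested on single libraries, with -0.084 without LT2i replicate 2 (limma adjusted p = 0.858) and -0.55 without serum replicate 1 (0.334), against -1.13 without serum replicate 2 (0.042) and -1.59 without LT2i replicate 1 (0.00117), each with a lone library assumed to vary like the other groups. Zfp42 (-0.40, interval -1.06 to 0.25), Klf4 (-0.30, interval -1.33 to 0.72) and Tbx3 (0.08, interval -0.47 to 0.64) were not called. With empty bins as 0 reads, Zfp42, at 9 and 7 reads in serum and 3 and 2 in LT2i, was called lower (-1.33, limma adjusted p = 0.0158), and Tbx3 turned to -0.47 (adjusted p = 0.526).

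These directions are relative to a genome in which the median gene fell by 0.58 on the log2 scale. Over all genes the 13454 calls were 1492 higher and 11962 lower. With this median change subtracted, 11259 were called, 5744 higher and 5515 lower. Tfcp2l1 (-1.79), Nr5a2 (-0.90), Esrrb (-0.58) and Klf5 (-0.64, limma adjusted p = 0.0373) fell by more than the median gene, while the difference from it was not called for Nanog (-0.26), Klf4 (0.28) and Zfp42 (0.18). Among the 11117 genes also tested for expression the median fell further, by 0.81. Of these, 0.351% had a larger fall than Tfcp2l1, 12.4% than Nr5a2, 27.9% than Esrrb and 24.2% than Klf5. Centring each library on its own median gene moved every change up by 0.87 and so put the median gene at 0.29, with 11579 called, 8478 higher and 3101 lower. Tfcp2l1 (-1.50), Nr5a2 (-0.62) and Esrrb (-0.29, limma adjusted p = 0.00388) remained lower there, and Klf5 was not called (-0.36, adjusted p = 0.236). Tbx3 passed the threshold upward under both shifts (0.67 and 0.95), but with so few reads it had little room to fall with the genome, so no gain is read from this.

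The loss was not limited to the gene bodies. Within 60 kb upstream of Tfcp2l1 the mark went from 71.7% of input in serum to 24.6% in LT2i, and downstream from 116.8% to 40.0%. Around Klf2, whose body was nearly bare, the upstream flank went from 26.8% to 9.30% and the downstream flank from 32.9% to 8.15%. Downstream of Nr5a2 the values were 104.9% and 98.4%, and upstream of Klf4 129.0% and 125.4%, so these flanks stayed near the level of input. Flanks were not tested.

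**Figure D5:**
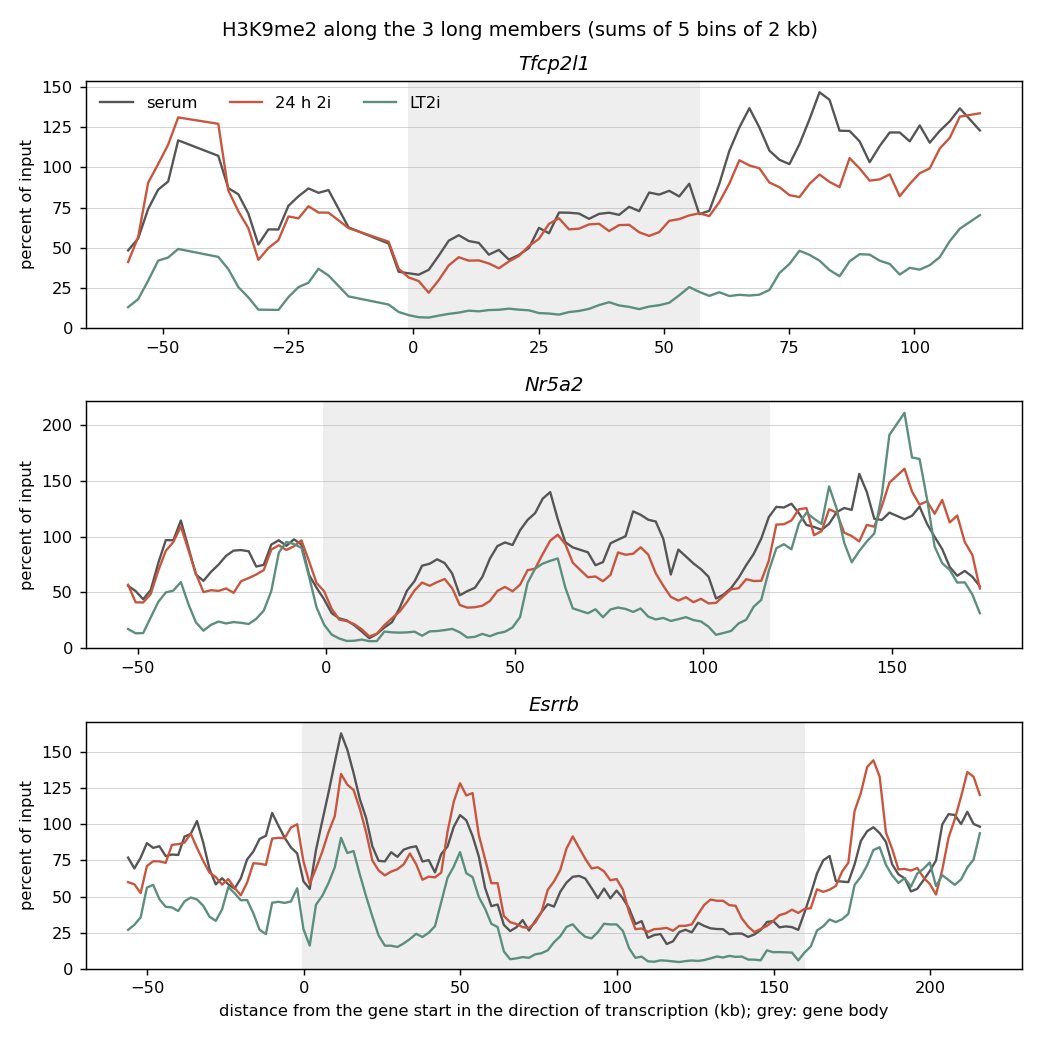
H3K9me2 in percent of input along Tfcp2l1, Nr5a2 and Esrrb against distance from the start in kb, as means of 2 libraries summed over 5 bins, with the gene body in grey. LT2i lies below serum and 24 h along most of each body, most evenly in Tfcp2l1, and the curves meet again downstream of Nr5a2.

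At the gene starts, over the bin of the start and its neighbours, the mark was lower than over the bodies for Tfcp2l1 (26.7% of input or less in serum) and Nr5a2 (30.7% and 35.1%), and similar for Esrrb (56.6% and 51.9%). In LT2i the starts held 5.20% and 10.5%, 19.3% and 9.15%, and 23.1% and 18.6%. These values rest on only 3.59 to 16.7 scaled bound reads in a library, where 1 read counts as 1.28 or 1.49. The lowest of them include the entries for empty bins, so they rest on very few real reads. The change was -1.64, -1.30 and -1.39 (limma adjusted p = 0.00528, 0.0165 and 0.000835), with empty bins again entered as 0.9 reads. Of all starts tested, 29.2% were called, 24.3% lower and 4.88% higher. Nanog, with 26.5% and 16.4% at its start in serum and 7.23% and 4.70% in LT2i, fell by 1.84 (limma adjusted p = 0.0015). Its LT2i values rest on 6.42 and 4.17 scaled bound reads, of which the second includes entries for empty bins. The starts of Klf5 (0.26, limma adjusted p = 0.677), Klf4 (-0.51, adjusted p = 0.432) and Tbx3 (-0.32, adjusted p = 0.606) were not called. In serum those of Klf5 (4.50% and 4.84% of input) and Tbx3 (6.37% and 6.45%) were already near the value entered for empty bins. A fall there could hardly be seen, so the body and start of Klf5 are not compared. The start of Zfp42 had too few reads to be tested. That of Klf2, at 5.85% and 5.66% in serum, 14.2% and 14.3% at 24 h and 5.69% and 6.60% in LT2i, was called at neither time. Expression was measured until 72 h and H3K9me2 in LT2i, so both readouts shared serum and 24 h alone. At 24 h Nanog, Klf2, Esrrb, Klf4 and Tbx3 were called higher in expression, as were 34.2% of all genes. The calls of Esrrb, Klf4 and Tbx3 were lost with quantile normalisation, and those of Klf4 and Tbx3 with the span trend removed. The mark over the bodies of Nanog (-0.62, interval -1.45 to 0.22), Esrrb (0.12), Klf4 (0.01) and Tbx3 (0.55) was not called. The body of Klf2 had too few reads. Nr5a2, the 1 member with the mark called lower, was not called in expression (-0.29, limma adjusted p = 0.097). Klf5 and Zfp42 were called lower with the mark not called (0.56 and 0.48), and Tfcp2l1 was called in neither. With the span trend removed or the replicate block, Tfcp2l1 was called higher in expression.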

How the data were processed

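Expression was taken from the deposited table of log2 values per gene, which the authors scaled for the length of genes and the depth of libraries, with the 75th percentile set to 2.51 in each. The H3K9me2 table deposited by the authors gives the log2 of reads in each 2-kb bin after scaling to the largest library, with coordinates of GRCm38 and an empty bin entered as 0.9 reads. All values of a library were whole reads within 2% once the scaling was undone. No listed bin had fewer than 8 scaled input reads in any input. Klf4 had 3 of its 4 bins listed and Nr5a2 59 of 60. The submitters' processing notes name TopHat2 2.0.11, Bowtie2 and Trim Galore 0.3.5, without roles.

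Genes with a log2 value of 0 or more in at least 3 of 12 libraries (12306) were tested with limma 3.58.1 in R 4.3.3, with all 12 libraries in 1 fit, an intensity trend and Benjamini-Hochberg adjustment over all genes. H3K9me2 was tested as log2 of bound over input reads, summed over a gene's bins, in the 6 bound libraries, for 21931 genes whose scaled reads averaged 20 or more over the bound and input libraries. Tests were two-sided and the scripts were tested on simulated data. Other scaling, filters, a replicate block, gene starts, inputs and left-out libraries were tried, as the closing section gives.

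Members and gene lists were chosen with earlier results of these data known. All 9 members were named, with every library. Of each other list the 4 genes with the largest called change at 72 h were named, and for each member the 2 genes with the most similar pattern. Same-numbered replicates had r = 0.16 to 0.54 between serum and 6 h and 0.11 to 0.47 between serum and 24 h. Unlike numbers could be as close, with serum replicate 2 at 0.25 with 6 h replicate 1 and 0.34 with 24 h replicate 1. Replicate 3 alone stood apart (0.54 and 0.47), so the numbers are not shown to be pairs. Blocked values are given as an alternative only. For 72 h and for H3K9me2 they stand in the closing section alone. Not every same-numbered pair was above 0.1 between serum and 72 h (0.05, 0.30 and 0.40), between 24 h and 72 h (-0.25, 0.58 and 0.81) or in the H3K9me2 libraries (0.00 to 0.07), so those numbers were not taken as pairs. Between 6 h and 72 h, which were not compared, r was 0.13 to 0.53. The block fit that also removes the span trend, the H3K9me2 fit with empty bins as 0 reads and the one with the median change subtracted were chosen after seeing the data. The KLF motif and the joined SOX and OCT motif were settled after matches to an earlier motif set were seen. Bisulfite files are in another genome build and were not used here.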

Additional observations from a re-analysis of the deposited data

Results flagged for a closer look

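The change against serum differed between 24 h and 72 h in 5 of the 9 genes, by the test of the difference itself in limma. Klf5 was lower than in serum at 24 h and back near it at 72 h, a difference of 1.57 on the log2 scale. Tfcp2l1 (1.26) and Nr5a2 (1.13) were called above serum at 6 and 72 h and not at 24 h, where Tfcp2l1 was called higher with the replicate block and with the span trend removed. Tbx3 (0.99) and Klf4 (0.91) were called above serum at both times and were higher at 72 h, but neither 24 h call held with the span trend removed or with quantile normalisation. The 24 h libraries also differed with gene span, and the part of this in these differences was not tested.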

How the results depend on the processing

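Of the 576 changes of single members in expression under the alternatives, 510 kept their direction and side of the threshold, 41 lost and 19 gained a call and 6 turned direction. Of 180 in H3K9me2, 150 kept both, 4 lost and 7 gained a call and 19 turned. Summing the inputs takes the same amount from all libraries of a gene. Its changes therefore equal those of bound libraries alone by construction, and both are among the 180. Among expression calls, a minimum log2 change of 1 left 4 of the 9 genes at 6 h, 3 at 24 h, 5 at 72 h and 3 for 72 h against 24 h (652, 3378, 2579 and 1174 of all genes), since smaller changes are then not called. Quantile normalisation left 6 at 6 h and 4 at 24 h, without Klf4, Esrrb and Tbx3, and gave 8 for 72 h against 24 h, with 15.9%, 63.9% and 33.4% of all genes called. The replicate block called 9 members at 6 h, 8 at 24 h, 8 at 72 h and 6 for 72 h against 24 h, where Esrrb was added (limma adjusted p = 0.0328), and 20.9%, 71.0%, 60.9% and 47.1% of all genes, against 15.6%, 63.3%, 52.2% and 31.6% without it. The block with the span trend removed gave 8 members for 72 h against 24 h, with 5493 of all genes called (44.6%). At 6 h it gave 9 members and 3032 of all genes (24.6%). A log2 value of 2 or more in 3 libraries gave 1182 of all genes at 6 h and 2547 for 72 h against 24 h, and the 6 compared libraries alone 3585 and 1587. Leaving out 1 library gave 5 to 8 members and 1230 to 1445 of all genes at 6 h, and 2427 (without 72 h replicate 1) to 6692 (without 24 h replicate 3) of all genes for 72 h against 24 h. Directions turned for Nr5a2 at 24 h (0.15) and Esrrb for 72 h against 24 h (-0.013) with the span trend removed, with or without the block. With 1 library left out, the change of Klf5 at 72 h ran from -0.29 to 0.031 and that of Nanog from 24 to 72 h from -0.010 to 0.30. For H3K9me2 at 24 h no member was called by limma after centring or at gene starts, where 4 and 2 of 8 tested members had an unadjusted p under 0.05. Of all genes, 4371 of 21931 and 3604 of 22439 had one. At starts Klf2 was tested in place of Zfp42. With 1 library left out the 24 h change of Nr5a2 ran from -0.55 to -0.35. Over all genes 584 were called from bound libraries alone or with the inputs summed, 412 after centring, 217 at starts, 1711 with the replicate block, 261 with empty bins as 0 reads, and 0 (without either 24 h library, a group then of 1 library) to 584 with 1 library left out. In LT2i 6545 of all genes were called at starts. The block added Nanog (limma adjusted p = 0.0309), giving 5 members, with 62.6% of all genes called against 61.3% without it. At starts the 24 h change turned for Nanog (0.020), Klf4 (-0.15), Tfcp2l1 (0.18) and Nr5a2 (0.25), and the LT2i change for Klf5 (0.26) and Tbx3 (-0.32). The starts of Klf5 and Tbx3 were near the value entered for empty bins in serum and LT2i, so their turns say little of stability. Tbx3 in LT2i also turned with bound libraries alone or inputs summed (-0.23), and with empty bins as 0 reads (-0.47). Centring turned Nanog (0.032), Klf4 (0.56) and Zfp42 (0.46), and subtracting the median change turned Klf4 (0.28) and Zfp42 (0.18), since either moves all genes up by 1 amount, so these turns say nothing of stability. With 1 library left out Klf4 ran from -0.65 to 0.68 at 24 h and from -0.97 to 0.36 in LT2i, and Tbx3 in LT2i from -0.21 to 0.38. Where no construction is named, the cause was not tested. Low read numbers over the short genes and the unknown depth of the RNA-seq libraries limit precision.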
